A study of Mus musculus with 12 samples.

Results

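Transcript levels of 8 genes of nuclear receptor signalling, Hnf4a, Nr1h4, Rxra, Ppara, Ppard, Pparg, Ppargc1a and Esrra, were followed in obstructed and unobstructed kidneys of wildtype mice and of mice with a mutated acyl-CoA thioesterase gene, Acot12. The genes were chosen by name, as 7 nuclear receptors and 1 coactivator (Ppargc1a) linked to proximal tubule identity and fatty acid use, out of 23183 genes in the deposited tables. All 8 passed the filter for testing (at least 1 FPKM, mapped fragments divided by transcript length and by library depth, in at least 3 libraries), and each was above 1 FPKM in all 12 libraries. The mice were C57BL/6 by the labels (C57BL/6N males, 6 to 7 weeks old, by the study's methods), and 1 ureter of each had been obstructed (unilateral ureteral obstruction, UUO), a model in which back pressure injures the tubules and leads to fibrosis. Total RNA of kidney cortex was taken at day 7. Wildtype (WT) mice and Acot12-/- mice, which carry a germline mutation of Acot12 made with a programmable nuclease and present in all tissues, each gave 3 UUO libraries and 3 libraries of contralateral (CL) kidney, the unobstructed kidney opposite. No sham-operated kidney was among the samples, so the CL kidney of an animal with 1 obstructed kidney was the only control. Nothing in the labels says that libraries of a group came from separate animals, and the p-values then measure only the spread between these libraries.

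Nuclear receptors are transcription factors that are switched by small lipophilic ligands such as fatty acids, bile acids and steroids. Most of those described here bind DNA as a pair with a retinoid X receptor (RXR), on repeats of a short hexamer, and recruit coactivators such as PGC-1α (Ppargc1a) when active. In the proximal tubule, HNF4α maintains the mature epithelial program, PPARα drives fatty acid oxidation, and PGC-1α with ERRα (Esrra) drives the mitochondrial genes on which this cell depends for ATP.

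The targeted gene was checked first. Acot12 read 73.8, 52.7 and 78.1 FPKM in the WT CL kidneys and 9.15, 9.01 and 6.80 FPKM in the Acot12-/- CL kidneys. In UUO kidneys it read 9.98, 16.7 and 21.2 FPKM in WT and 3.28, 1.80 and 3.86 FPKM in Acot12-/-. The genotypes did not overlap in either kidney, though the transcript of the mutated gene remained measurable, and the change from CL to UUO in WT alone was a log2 fold change of -2.07. The proximal tubule transporter gene Slc34a1 read 620 to 2087 FPKM in the 6 CL libraries and 79.9 to 454 FPKM in the 6 UUO libraries, so the labelled tissue held its defining marker. Library 2 of the Acot12-/- CL group (Acot12-/- CL 2) stood apart. It lay at -52.3 on the second principal component, against 22.2 and 33.0 for the other 2 libraries of its group, and its genes of highest GC content read lower, and those of lowest GC content higher, than in its group. Results that rest on it are given with and without it.

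In WT kidneys 5 of the 8 genes fell from CL to UUO and none rose, in a limma fit over all 12 libraries with Benjamini-Hochberg adjustment over 13243 genes. Those that fell were Nr1h4, Ppargc1a, Hnf4a, Esrra and Ppara. Of all genes tested, 47.5% were called in this comparison, 23.9% lower and 23.6% higher. In Acot12-/- kidneys 4 fell (Hnf4a, Ppara, Nr1h4 and Ppargc1a) and 1 rose (Pparg), where 53.7% of all genes were called, 27.2% lower and 26.6% higher. Taking the 8 genes as a list, the median difference on the log2 scale was -0.97 in WT and -1.05 in Acot12-/-, against 0.01 and -0.01 over all genes tested. Without overlap between CL and UUO libraries, 5 members lay lower in WT and 4 in Acot12-/-, against 35.8% and 27.6% of all genes. At an unadjusted p under 0.05 there were 6 of 8 in each genotype, against 54.4% of all genes in WT and 58.9% in Acot12-/-. No member was called between genotypes in either kidney, nor by the interaction, which tests whether the change with UUO differed between genotypes. In bulk RNA, fewer cells of a type and less RNA per cell cannot be told apart. Without Acot12-/- CL 2 the calls were 6 in WT, with Pparg added, and 7 in Acot12-/-, with Esrra and Rxra added, while the share of all genes called rose to 61.8% in WT and 63.4% in Acot12-/-.

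**Figure D1:**
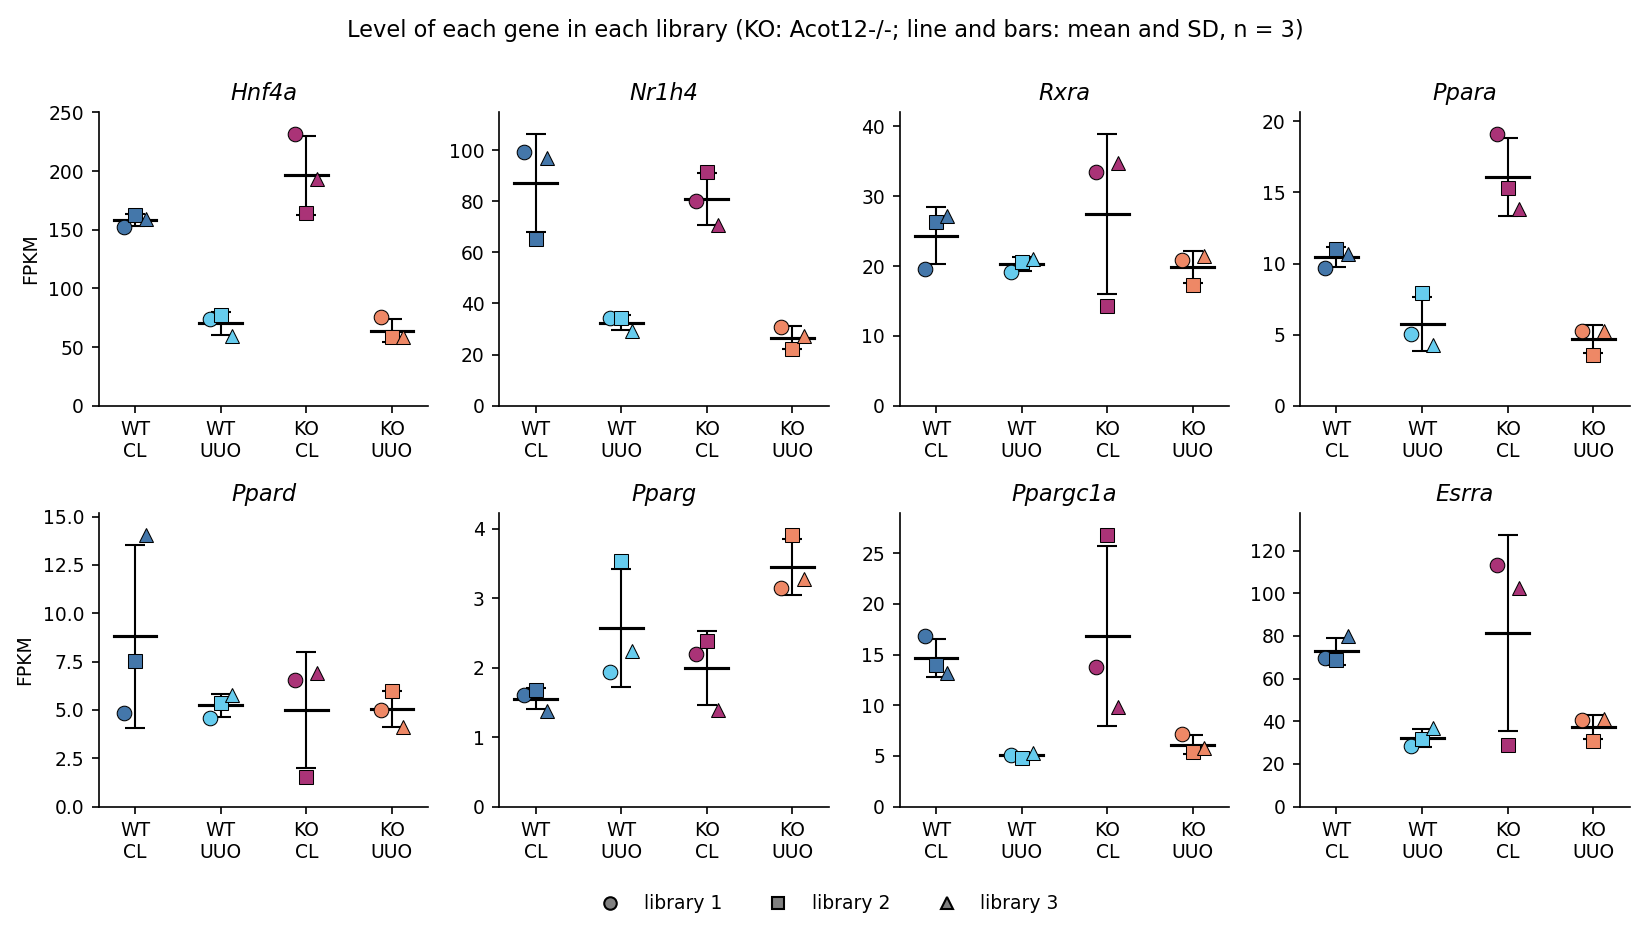
FPKM of the 8 genes in each of the 12 libraries, 1 panel a gene with its own linear axis from 0, by group (KO is Acot12-/-), with lines and bars for the mean and SD of 3 libraries and a symbol for each library number. Hnf4a, Nr1h4, Ppara and Ppargc1a sit lower in all 6 UUO libraries than in all 6 CL libraries, Pparg sits higher in UUO within each genotype, and the square of KO CL (Acot12-/- CL 2) lies apart from its group for Esrra, Ppard, Rxra and Ppargc1a.

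Hnf4a (GRCm38 chr2:163506808-163572910, plus strand) encodes HNF4α, a receptor that binds DNA as a pair with itself and is needed for the mature proximal tubule program. It read 152, 163 and 159 FPKM in WT CL kidneys and 74.0, 77.6 and 59.3 FPKM in WT UUO kidneys. Its values in Acot12-/- mice were 232, 164 and 193 FPKM in CL kidneys and 75.7, 58.2 and 58.3 FPKM in UUO kidneys. No UUO value came near the CL values in either genotype, and the log2 fold change was -1.17 (SE 0.18, limma adjusted p = 0.000243) in WT and -1.60 (SE 0.18, adjusted p = 1.83e-05) in Acot12-/-. By pairs with the same number, the UUO kidney held 48.5%, 47.7% and 37.3% of the CL level in WT. In Acot12-/- it held 32.7%, 35.4% and 30.2%, below all 3 WT pairs, a separation whose share over all genes was not counted. The test of that difference, the interaction, gave -0.43 (SE 0.25, adjusted p = 0.627), and without Acot12-/- CL 2 it gave -0.55 (adjusted p = 0.133). The 2 UUO groups overlapped and differed by -0.13. The 3 Acot12-/- CL libraries lay above the 3 WT CL libraries, by 0.30 on the log2 scale (adjusted p = 0.437), a separation in that direction that 8.6% of all genes showed. No member lay below WT without overlap in CL kidneys, as 9.73% of all genes did.

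Nr1h4 (chr10:89454234-89533585, minus strand) encodes FXR, the bile acid receptor, which in kidney is expressed in tubules and acts on bile acid transport and water handling. It read 99.3, 65.0 and 97.1 FPKM in WT CL kidneys and 34.2, 34.2 and 29.1 FPKM in WT UUO kidneys. In the Acot12-/- groups it read 80.2, 91.3 and 70.8 FPKM in CL kidneys and 30.7, 22.1 and 27.2 FPKM in UUO kidneys. No UUO library reached the lowest CL library. The log2 fold change was -1.37 (SE 0.19, adjusted p = 0.00015) in WT and -1.57 (adjusted p = 3.8e-05) in Acot12-/-. In WT this was the largest fall among the 8 genes on the fitted scale of log2(FPKM + 1), next to -1.36 for Ppargc1a. By mean FPKM, Ppargc1a fell by the larger factor there (14.7 to 5.08, against 87.2 to 32.5 for Nr1h4). The genotypes overlapped in CL kidneys (-0.09) and in UUO kidneys (-0.28), and the interaction was -0.19 (adjusted p = 0.922).

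RefSeq lists 12 start sites for the 8 genes, and the 250 bases before each were read on the GRCm38.p6 assembly. The letters searched, on both strands, were the receptor hexamer AGGTCA, a pair of such hexamers in the same direction with 1 base between (the form bound by PPAR with RXR), the ERR element TCAAGGTCA and an HNF4 core CAAAGTCCA. The first of these is contained in the second, and in the ERR element. The windows of Nr1h4 and of Rxra, its partner on DNA, are shown because they hold such letters, with each match in capitals. Each lies inside an intron of its own gene, before an internal start site. The first is Nr1h4 at chr10:89506659-89506908 (minus strand), with a hexamer on the opposite strand 214 bases before the start.
Nr1h4 start: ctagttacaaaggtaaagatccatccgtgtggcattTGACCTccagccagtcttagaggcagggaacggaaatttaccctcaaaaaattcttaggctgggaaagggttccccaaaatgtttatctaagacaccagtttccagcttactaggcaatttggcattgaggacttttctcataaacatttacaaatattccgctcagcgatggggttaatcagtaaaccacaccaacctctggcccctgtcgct
The other is the second start of Rxra at chr2:27709042-27709291 (plus strand), with hexamers 87 bases (opposite strand) and 48 bases before the start.
Rxra second start: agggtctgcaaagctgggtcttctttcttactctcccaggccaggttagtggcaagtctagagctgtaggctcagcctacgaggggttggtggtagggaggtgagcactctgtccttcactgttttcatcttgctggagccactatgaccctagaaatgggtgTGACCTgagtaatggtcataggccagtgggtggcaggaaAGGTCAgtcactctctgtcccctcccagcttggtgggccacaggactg
The hexamer was found in 4 of the 12 windows, and in 14% of the 32851 promoter windows of the genome searched the same way. Besides those of Nr1h4 and Rxra, these were the first and second starts of Pparg, 28 and 9 bases before the start. The spaced repeat, the ERR element and the HNF4 core were found in none of the 12, and in 0.0335%, 0.387% and 0.384% of all windows. A match is a string of letters and not a measured binding site.

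Rxra (chr2:27676440-27762957, plus strand) encodes RXRα, the partner with which PPARs and FXR bind DNA. It read 19.6, 26.3 and 27.1 FPKM in WT CL kidneys and 19.1, 20.6 and 21 FPKM in WT UUO kidneys. In Acot12-/- it read 33.4, 14.3 and 34.8 FPKM in CL kidneys and 20.9, 17.3 and 21.4 FPKM in UUO kidneys. The groups overlapped in both genotypes, and the difference of -0.24 in WT (SE 0.27, adjusted p = 0.49) and of -0.35 in Acot12-/- (adjusted p = 0.298) did not pass the test. In Acot12-/- the overlap came from 1 library, Acot12-/- CL 2. Without it Rxra fell by 0.75 on the log2 scale in Acot12-/- (adjusted p = 0.00108), and it was then higher in Acot12-/- than in WT CL kidneys by 0.48 (adjusted p = 0.0384), where 22.1% of all genes were called. The level of Hnf4a over that of Rxra, both per length, went from a mean of 6.60 in WT CL to 3.49 in WT UUO kidneys, and from 8.01 to 3.23 in Acot12-/-. The ratios of CL and UUO kidneys did not overlap in either genotype (exact two-sided permutation p = 0.1, the smallest that 3 against 3 can give, 0.235 after adjustment over 40 ratio tests).

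Of the 3 PPAR genes, Ppara fell with UUO in both genotypes, Pparg rose in Acot12-/- kidneys and Ppard passed the test in neither genotype. Ppara (chr15:85734983-85802819, plus strand) encodes the receptor for fatty acids that induces their oxidation. It read 9.68, 11 and 10.7 FPKM in WT CL kidneys and 5.07, 7.93 and 4.27 FPKM in WT UUO kidneys. Its values in Acot12-/- mice were 19.1, 15.3 and 13.9 FPKM in CL kidneys and 5.26, 3.56 and 5.23 FPKM in UUO kidneys. It fell without overlap in both, by 0.80 on the log2 scale in WT (SE 0.21, adjusted p = 0.00732) and by 1.59 in Acot12-/- (SE 0.21, adjusted p = 5.32e-05). The UUO kidney held 52.4%, 71.8% and 40.1% of the CL level of the same number in WT and 27.5%, 23.2% and 37.7% in Acot12-/-. Every Acot12-/- pair was thus below every WT pair, and the share of all genes that separate so was not counted. The interaction of -0.80 (SE 0.29) had an unadjusted p = 0.018 in the limma fit and an adjusted p = 0.317. Of all genes, 10.5% had an unadjusted interaction p under 0.05.

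In CL kidneys Ppara read higher in each Acot12-/- library than in each WT library. The difference of 0.57 on the log2 scale (SE 0.21) had an unadjusted p = 0.0172 in the limma fit and an adjusted p = 0.161. It was the only member with an unadjusted p under 0.05 there, 1 of 8, against 17.3% of all genes. Ppara and Hnf4a were the 2 members whose Acot12-/- CL libraries all lay above WT. The summed FPKM of 16 proximal tubule markers also lay higher in Acot12-/- CL kidneys (10275 to 13530) than in WT CL kidneys (7843 to 10196), and those of endothelial, macrophage and fibroblast markers lay lower (69.4 to 102 against 195 to 310, 55.5 to 123 against 161 to 185, and 51.1 to 117 against 149 to 191). Their part in the difference of Ppara and Hnf4a was not tested. In UUO kidneys Ppara overlapped between genotypes (-0.23). The comparison of genotypes in CL kidneys and that of UUO with CL in Acot12-/- share the 3 Acot12-/- CL libraries, so their values of Ppara are not independent.

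Pparg (chr6:115360951-115490399, plus strand) encodes the receptor best known for adipocyte differentiation, and was the lowest of the 8 genes. It read 1.60, 1.67 and 1.38 FPKM in WT CL kidneys and 1.94, 3.53 and 2.24 FPKM in WT UUO kidneys. In the Acot12-/- groups it read 2.20, 2.39 and 1.40 FPKM in CL kidneys and 3.15, 3.91 and 3.28 FPKM in UUO kidneys. UUO libraries lay above CL libraries without overlap in both genotypes, as for 35.5% of all genes in WT and 27.8% in Acot12-/-. The log2 fold change was 0.46 in WT (SE 0.18, adjusted p = 0.0525) and 0.58 in Acot12-/- (SE 0.18, adjusted p = 0.0164), on a scale of log2(FPKM + 1) that understates the change of genes this low. With the replicate number as a block, Pparg was called in WT too (adjusted p = 0.0378). It was not called in Acot12-/- without Acot12-/- CL 3 (0.43, adjusted p = 0.0612) or without Acot12-/- UUO 2 (0.51, adjusted p = 0.0647), and it was called in WT in 3 of the 12 fits that each left out 1 library, without WT UUO 1 (0.59, adjusted p = 0.0361), Acot12-/- CL 2 (adjusted p = 0.0349) or Acot12-/- CL 3 (adjusted p = 0.0322). An estimated 37 to 142 fragments stood behind each value, and the lowest of them carries a counting error of 16.5%. The adipocyte genes Adipoq and Plin1 were listed at 0 in 8 and 10 of the 12 libraries and nowhere exceeded 1.62 and 0.348 FPKM, and of 8 adipocyte markers the 1 tested was not called. Both of these highest values were in WT CL 2. The summed FPKM of the 8 markers ran from 3.42 to 23.2 in WT CL and from 4.93 to 5.65 in WT UUO kidneys. In Acot12-/- it ran from 2.58 to 7.86 in CL and from 3.76 to 7.04 in UUO kidneys. Between genotypes Pparg overlapped, with differences of 0.22 in CL and 0.34 in UUO kidneys (SE 0.18 each, adjusted p = 0.619 and 1.00).

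Ppard (chr17:28232700-28301474, plus strand) encodes the broadly expressed member of the family. It read 4.82, 7.54 and 14.1 FPKM in WT CL kidneys and 4.60, 5.34 and 5.77 FPKM in WT UUO kidneys. In Acot12-/- it read 6.57, 1.54 and 6.89 FPKM in CL kidneys and 4.98, 5.98 and 4.13 FPKM in UUO kidneys. The groups overlapped in both genotypes, with differences of -0.55 in WT (SE 0.41, adjusted p = 0.291) and 0.17 in Acot12-/- (adjusted p = 0.755). The second of these turned to -0.37 without Acot12-/- CL 2. Between genotypes Ppard also overlapped, with -0.77 in CL kidneys (SE 0.41, adjusted p = 0.38; -0.23 without Acot12-/- CL 2) and -0.06 in UUO kidneys.

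Set side by side, the 3 levels gave a changed mix. Ppara stood at 6.05, 6.59 and 7.71 times Pparg in WT CL kidneys and at 2.61, 2.24 and 1.91 times in WT UUO kidneys. In Acot12-/- the ratio was 8.68, 6.40 and 9.94 in CL and 1.67, 0.909 and 1.59 in UUO kidneys, so that in library Acot12-/- UUO 2 Pparg read above Ppara. CL and UUO did not overlap in either genotype, and the UUO ratios of Acot12-/- lay below those of WT (exact two-sided permutation p = 0.1 for each of the 3 comparisons, the smallest possible, 0.235 after adjustment over 40 ratio tests). Pparg made up 5.30% to 9.94% of the summed FPKM of the 3 genes in WT CL and 16.7% to 21% in WT UUO kidneys. Its share in Acot12-/- mice was 6.30% to 12.4% in CL kidneys, against 23.5% to 29.1% in UUO kidneys.

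**Figure D2:**
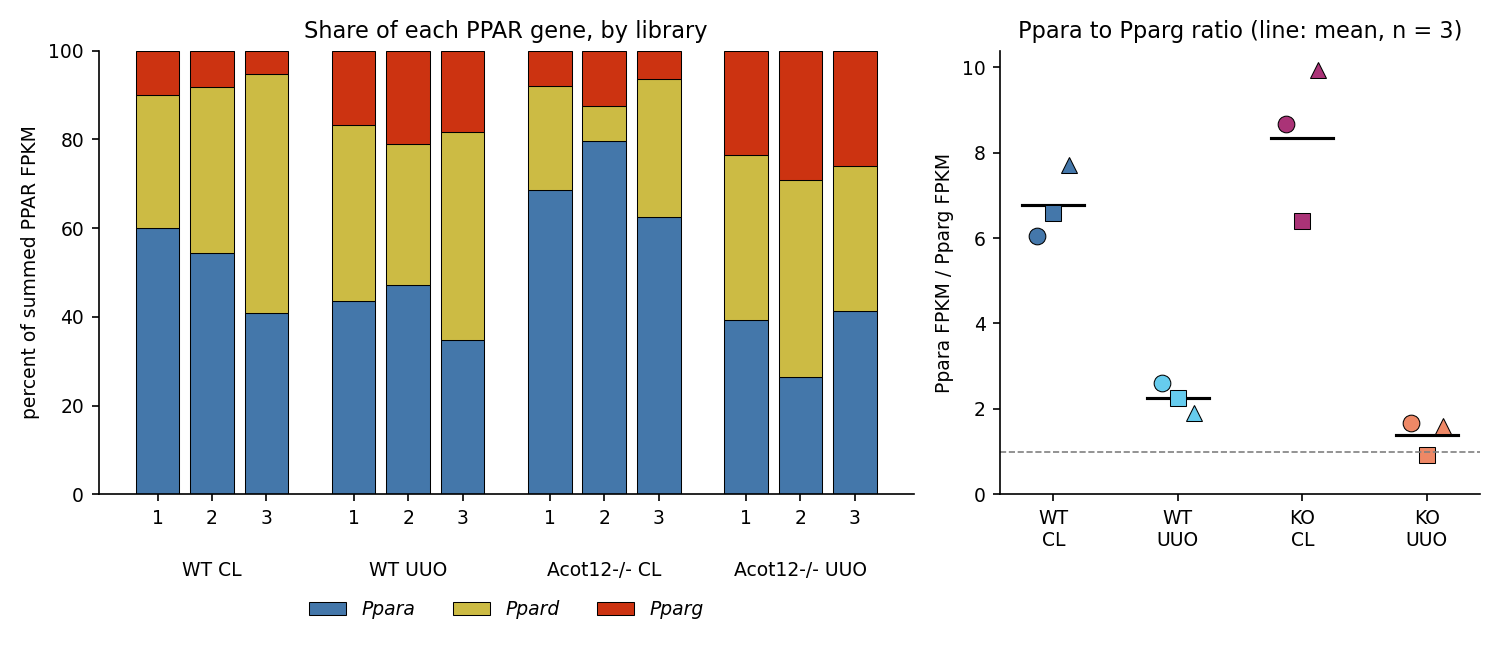
Left, share (%) of Ppara, Ppard and Pparg in the summed FPKM of the 3 genes, as 1 stacked bar for each of the 12 libraries; right, Ppara over Pparg FPKM in each library by group (KO is Acot12-/-), with the mean of 3 as a line and a dashed line at equal levels. The Pparg share is at most 12.4% in the CL libraries and at least 16.7% in the UUO libraries, and the Ppard share is smallest in library Acot12-/- CL 2.

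Ppargc1a (chr5:51454250-51567726, minus strand) encodes PGC-1α, the coactivator that turns on mitochondrial biogenesis. It read 16.8, 14 and 13.2 FPKM in WT CL kidneys and 5.11, 4.82 and 5.32 FPKM in WT UUO kidneys. Its values in Acot12-/- mice were 13.8, 26.8 and 9.84 FPKM in CL kidneys and 7.15, 5.43 and 5.77 FPKM in UUO kidneys. It fell without overlap, by 1.36 on the log2 scale in WT (SE 0.27, adjusted p = 0.00142) and by 1.22 in Acot12-/- (SE 0.27, adjusted p = 0.00223). Here Acot12-/- CL 2 was the highest of its group, and without it the fall in Acot12-/- was 0.84 (adjusted p = 0.000887), with an interaction of 0.52 (adjusted p = 0.145) in place of 0.14. In UUO kidneys the 3 Acot12-/- libraries lay above the 3 WT libraries by 0.22 (adjusted p = 1.00), the 1 member of 8 to separate in that direction there, as 5.5% of all genes did. No member lay below WT without overlap there, as 6.48% of all genes did.

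Esrra (chr19:6910977-6921813, minus strand) encodes ERRα, an orphan receptor that carries PGC-1α to genes of oxidative phosphorylation. It read 69.8, 68.6 and 80.1 FPKM in WT CL kidneys and 28.6, 31.6 and 36.9 FPKM in WT UUO kidneys. In the Acot12-/- groups it read 113, 28.8 and 102 FPKM in CL kidneys and 40.5, 30.9 and 40.9 FPKM in UUO kidneys. It fell in WT without overlap (log2 fold change -1.15, SE 0.39, adjusted p = 0.0296). That call was lost in 5 of the 12 fits without 1 library, which were those without WT CL 1 (-1.18, adjusted p = 0.0641), WT CL 2 (-1.19, adjusted p = 0.0565), WT CL 3 (-1.08, adjusted p = 0.0839), WT UUO 1 (-1.07, adjusted p = 0.0868) and WT UUO 2 (-1.14, adjusted p = 0.072). Over the 12 fits the WT change ran from -1.25 to -1.07, and its limma adjusted p from 5.88e-05 to 0.0868. The 4 groups share 1 spread per gene in the fit. That of Esrra was widest in Acot12-/- CL kidneys (SD 45.9 FPKM, against 6.35 in WT CL and 4.24 in WT UUO). In Acot12-/- the difference of -0.89 (adjusted p = 0.0741) did not pass the test, and Acot12-/- CL 2 read below all 3 WT CL libraries and below the 3 UUO libraries of its own genotype. Without it Esrra fell by 1.51 in Acot12-/- (adjusted p = 2.24e-05) and was higher in Acot12-/- than in WT CL kidneys by 0.56 (adjusted p = 0.027) in place of -0.06. With the replicate block it was also called in Acot12-/- (adjusted p = 0.0245).

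The library that decided these values had a trend with GC content. Against the mean of the other 2 Acot12-/- CL libraries, the median gene of Acot12-/- CL 2 read 0.77 higher on the log2 scale in the lowest of 10 equal groups of genes by GC and differed by -1.02 in the highest. Each library was measured so, against the other 2 of its group. Highest minus lowest group was -1.80 there, 0.66 and 1.10 in its 2 fellow libraries, and between -0.23 and 0.11 in the other 9 libraries. The reference of the 2 fellow libraries contains Acot12-/- CL 2, so their values are not independent of its trend. The 8 members span that range. Esrra (61.8% GC) deviated by -1.87, Ppard (59.8%) by -1.61 and Rxra (57.0%) by -1.20, each further than the median of its own GC group (-1.02, -1.02 and -0.76). Hnf4a (53.7%, -0.36) and Ppara (51.5%, -0.09) lay near the middle, and Ppargc1a (41.7%) deviated by 1.14. With the trend removed within groups, a step added after seeing the data, 7 members were called in Acot12-/- kidneys, Esrra (-1.11) and Rxra (-0.48) among them, where 61.2% of all genes were called. No member was then called between genotypes in CL kidneys. Comparisons between groups carried GC trends as well. Highest minus lowest group was -0.05 between genotypes in CL kidneys, 0.54 without Acot12-/- CL 2 and 0.25 with the trend removed. From CL to UUO it was 0.60 in WT, and 0.69 in Acot12-/- or 0.10 without Acot12-/- CL 2. The part of GC content in the differences of Esrra and Rxra was not tested.

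**Figure D3:**
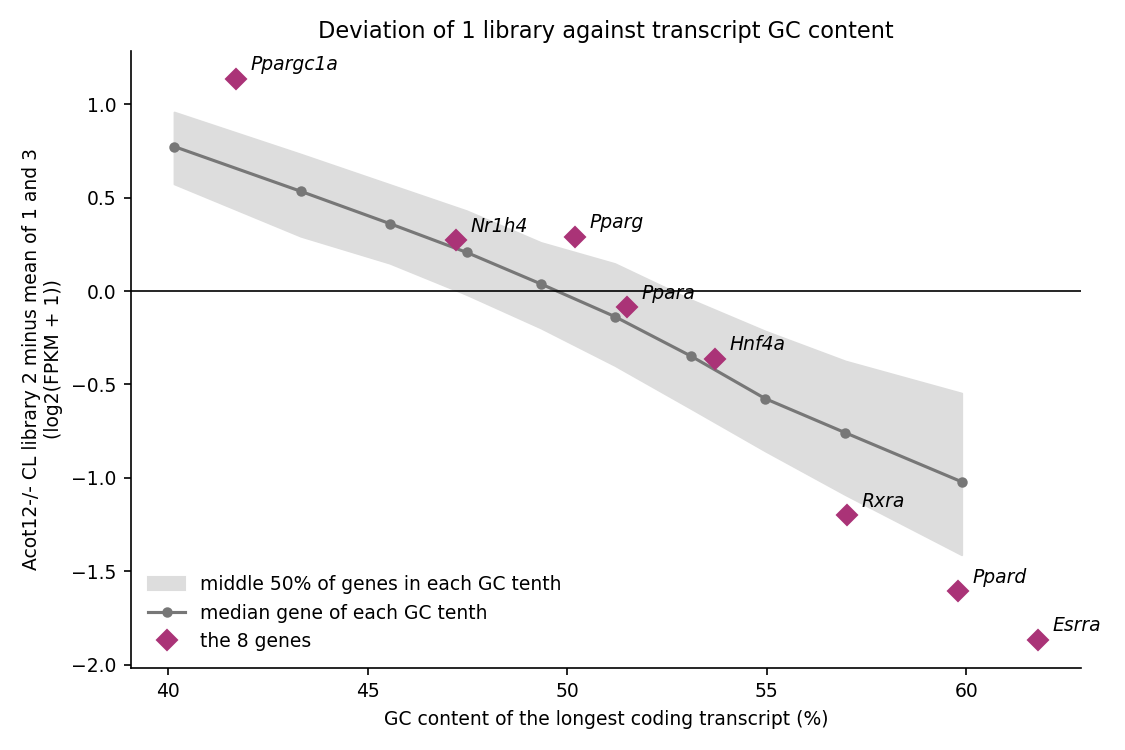
Difference in log2(FPKM + 1) between library Acot12-/- CL 2 and the mean of the other 2 Acot12-/- CL libraries, against the GC content (%) of the longest protein-coding transcript. The line joins the medians of 10 equal groups of genes, from 0.77 at the lowest GC to -1.02 at the highest, the band spans their quartiles, and the diamonds are the 8 genes, with Ppargc1a at 1.14 and Esrra at -1.87.

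**Figure D4:**
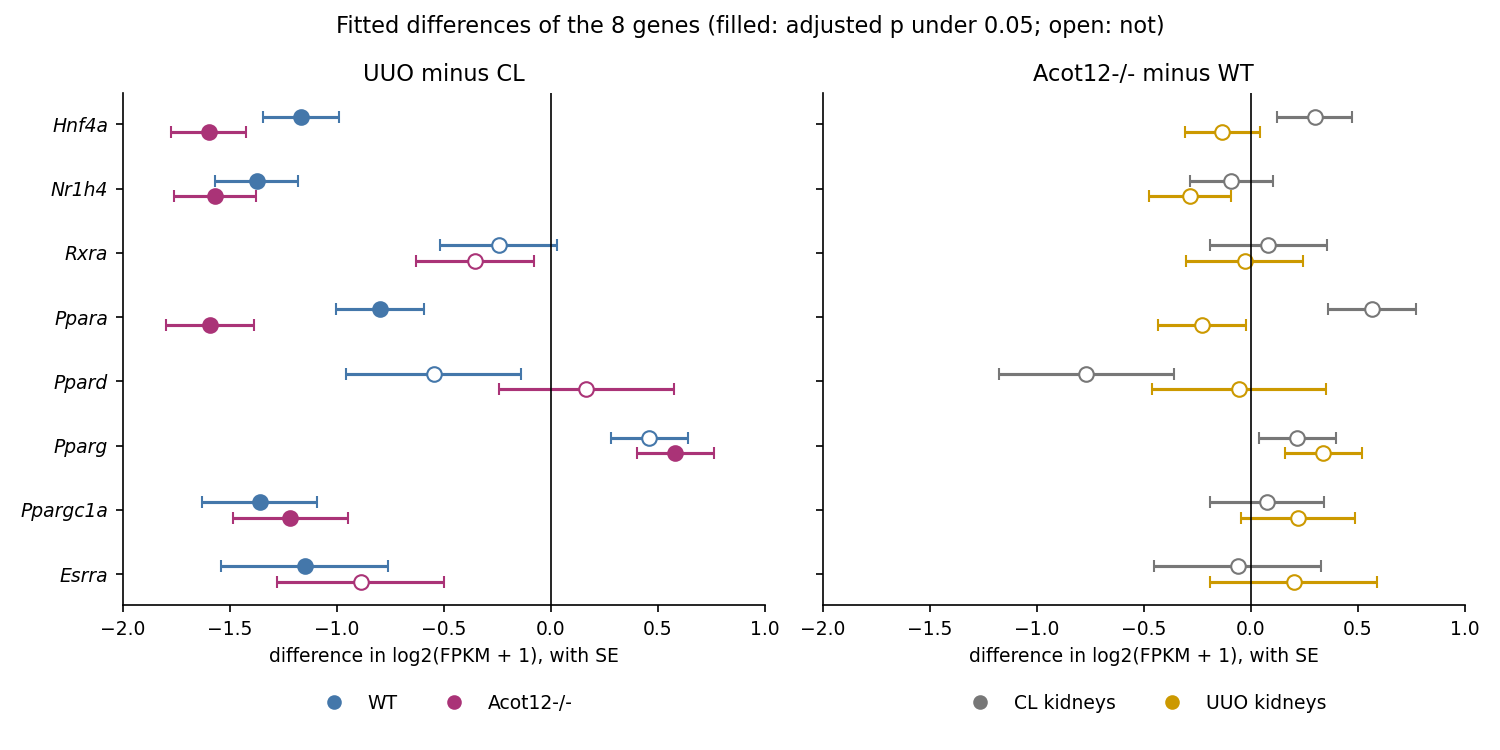
Differences of the 8 genes in log2(FPKM + 1), with the standard error of the fit as bars, for UUO minus CL in each genotype (left) and Acot12-/- minus WT in each kidney (right); filled symbols passed the test. Hnf4a, Nr1h4, Ppargc1a and Ppara are filled and below 0 in both genotypes on the left, where Rxra and Ppard are open, and every symbol on the right is open.

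Per length, the mean levels in WT CL kidneys ran from Hnf4a (158 ± 5.20 FPKM, SD, n = 3) through Nr1h4 (87.2 ± 19.2), Esrra (72.8 ± 6.35), Rxra (24.3 ± 4.10), Ppargc1a (14.7 ± 1.88), Ppara (10.5 ± 0.697) and Ppard (8.81 ± 4.75) to Pparg (1.55 ± 0.152). Nr1h4 overlapped with Esrra in that order, and Ppard with both Ppara and Ppargc1a. In WT UUO kidneys Hnf4a (70.3 ± 9.71) remained the highest and Pparg (2.57 ± 0.846) the lowest, but Nr1h4 (32.5 ± 2.91) and Esrra (32.4 ± 4.24) had the same mean within their spread, and Ppara (5.76 ± 1.92), Ppard (5.24 ± 0.595) and Ppargc1a (5.08 ± 0.249) overlapped. In Acot12-/- kidneys Hnf4a was again highest, at 196 ± 33.8 FPKM in CL and 64.1 ± 10.1 FPKM in UUO.

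Among 49 nuclear receptors, the 7 receptors described here supplied 47.2% of the summed receptor FPKM in WT CL kidneys and 34.9% in WT UUO kidneys. In Acot12-/- the shares were 48.8% and 33.3%. Hnf4a, Nr1h4 and Esrra ranked 1, 2 and 3 in WT CL kidneys and 1, 4 and 5 in WT UUO kidneys. The places between them were taken by the orphan receptors Nr2f6 and Nr2f2, at 52.4 and 36.8 FPKM in UUO kidneys, neither of which passed the test against CL. Ppara, Ppard and Pparg ranked 19, 20 and 31 in WT CL kidneys and 21, 22 and 28 in WT UUO kidneys.

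**Figure D5:**
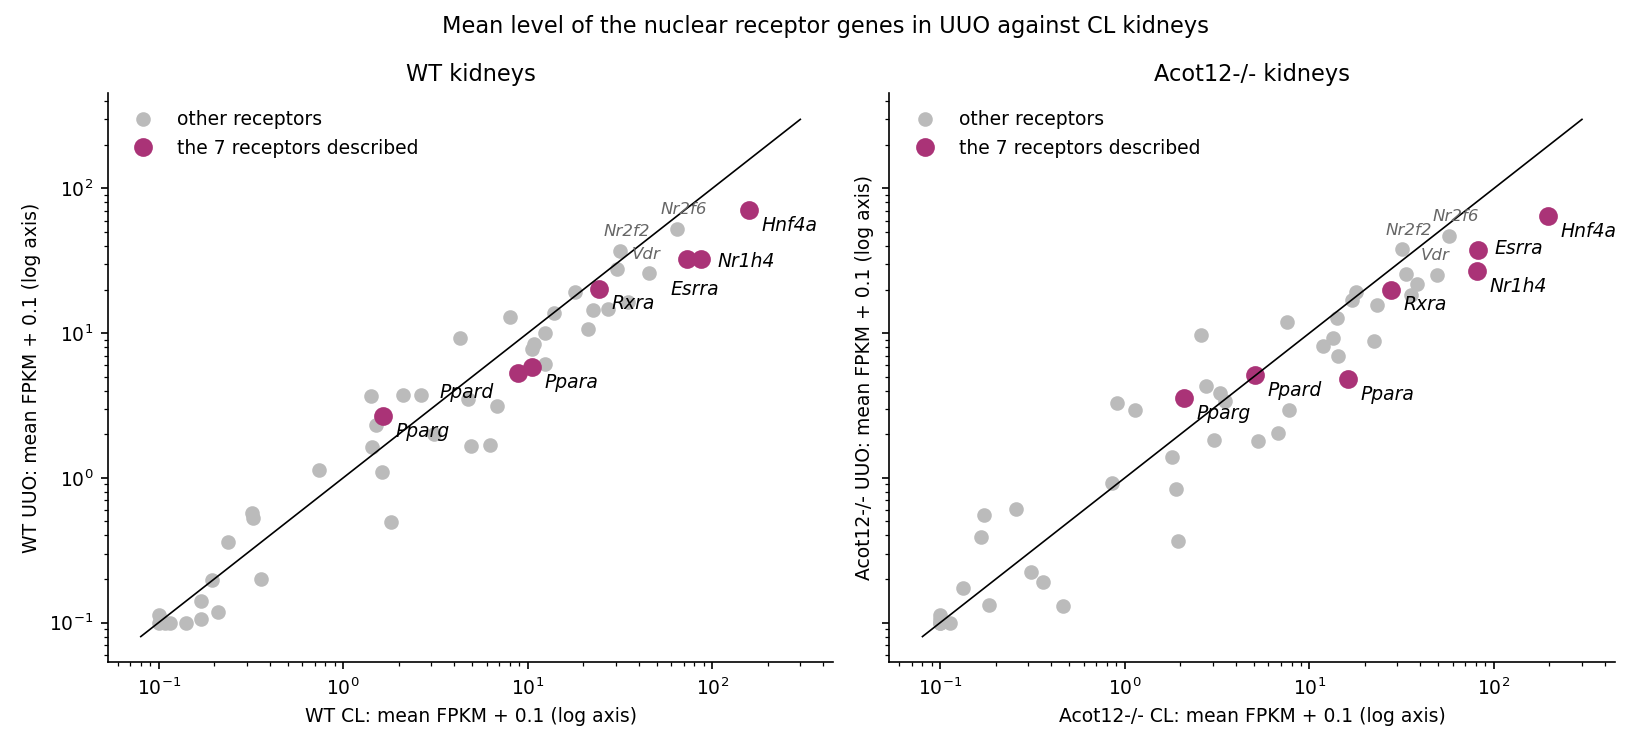
Mean FPKM + 0.1 (log axes) of the nuclear receptor genes in UUO against CL kidneys, for WT (left) and Acot12-/- (right), with the 7 receptors described here as large labelled points and the line of equal level drawn. Hnf4a, Nr1h4, Esrra and Ppara lie below the line and Pparg above it in both panels, and Nr2f6 and Nr2f2 stand between Hnf4a and the other members in UUO level.

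Of the 36 receptor genes tested, 14 fell and 2 rose in WT (median -0.34), and 12 fell and 6 rose in Acot12-/- (median -0.40). Leaving out the 7 members, 10 of 29 fell and 2 rose in WT (median -0.32), and 9 fell and 5 rose in Acot12-/-. Of these 29, 41.4% were called in WT and 48.3% in Acot12-/-, also below the shares of all genes. Without Acot12-/- CL 2 the counts over the 36 genes were 15 and 5 in WT and 17 and 5 in Acot12-/-, where 61.8% and 63.4% of all genes were called. Relatives of the members were among those that fell. The ERR relatives Esrrb (-1.43 in WT, -1.42 in Acot12-/-) and Esrrg (-0.93, -1.16) fell in both genotypes, as did Nr1h3 (-1.07, -0.80), which encodes the oxysterol receptor LXRα, and Esr1 (-1.18, -1.14), the estrogen receptor. The xenobiotic receptor gene Nr1i2 (1.00, 0.51) and Rarg (0.96, 1.62), a retinoic acid receptor and so another partner of RXRα, rose in both. The other RXR gene with a comparable level, Rxrb, read 18.0 ± 2.25 FPKM in WT CL and 19.1 ± 1.43 FPKM in WT UUO kidneys and was not called. No receptor gene was called between genotypes in either kidney or by the interaction. Esrrg, Nr1h3, Rxrb, Nr2f6 and Nr2f2 were named after their values were seen.

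Of 19 tested coregulators of these receptors, 3 rose and 5 fell in WT, and 3 rose and 6 fell in Acot12-/- (median -0.05 and -0.06). The shares called, 42.1% and 47.4%, lay below those of all genes (47.5% and 53.7%). Without Acot12-/- CL 2, 5 rose in each genotype and the median in Acot12-/- was 0.11. In WT Lpin1, which acts with PGC-1α in the nucleus, fell by 1.20 on the log2 scale, and the coactivators Ncoa4 and Ncoa1 fell by 1.11 and 0.55. Pprc1, which belongs to the PGC-1 family, rose (0.99), as did the methyltransferase Prmt1 (0.72) and the coactivator Ncoa6 (0.44). Ppargc1a and its relative Pprc1 thus passed the test in opposite directions in WT.

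Among 17 tested genes of hepatocyte nuclear factors and other tubule transcription factors, 5 rose and 4 fell in WT (median 0.39), and 7 rose and 4 fell in Acot12-/- (median 0.06). These were 52.9% and 64.7% called, against 47.5% and 53.7% of all genes. Without Acot12-/- CL 2, 10 rose and 5 fell in WT, where 61.8% of all genes were called, and the median in Acot12-/- was -0.02. Klf15, a proximal tubule regulator of metabolism, fell (-1.91 in WT, -2.09 in Acot12-/-), and so did Irx1 (-1.17 in WT) and Lhx1 (-0.91 in WT), which pattern the nephron. The progenitor and injury factors Sox9 (3.13, 3.09) and Sox4 (2.32, 2.83) rose, with Cebpb (1.20 in WT). Hnf4g, the paralog of Hnf4a, did not pass the test, with -0.42 in WT (adjusted p = 0.254), and was named after its values were seen.

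Genes that these receptors are known to act on were counted next. Of all genes, 23.9% were called lower and 23.6% higher in WT, and 27.2% and 26.6% in Acot12-/-. Of 28 tested PPARα targets, 20 fell and 2 rose in WT (median -1.15), and 21 fell and 2 rose in Acot12-/- (median -1.47). The peroxisomal enzyme gene Ehhadh fell most (-2.98 in WT, -3.28 in Acot12-/-), followed in WT by the fatty acid carrier Cd36 (-2.72) and the mitochondrial dehydrogenase Acadm (-2.70). Pdk4, which restrains glucose oxidation, and the lipid droplet coat gene Plin2 rose in both genotypes (1.17 and 0.89 for Pdk4, 0.89 and 0.74 for Plin2). Of 22 PGC-1α and ERRα targets, 19 fell in WT (median -1.37) and 20 in Acot12-/- (median -1.24), with Cox7a2 (-2.50 in WT) and cytochrome c, Cycs (-2.41), among the largest. In each genotype 1 rose, which in WT was Pdk4, a gene of both lists. The falls of these lists stand beside those of 15 of 16 proximal tubule markers in WT (median -2.47), and the part of either in the other was not tested.

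All 6 tested FXR targets fell in WT (median -1.23), and 5 of 6 in Acot12-/- (median -1.35), where 23.9% and 27.2% of all genes were called lower. Slc51a and Slc51b, the subunits of the bile acid exporter of the basolateral membrane, fell by 1.32 and 1.44 on the log2 scale in WT and by 1.53 and 1.64 in Acot12-/-. Nr0b2, the small heterodimer partner that FXR induces, fell too (-0.93, -1.17; named after its values were seen), from 1.10 to 2.61 FPKM in WT CL to 0.247 to 0.483 FPKM in WT UUO kidneys. The water channel gene Aqp2, which belongs to collecting duct and is counted there too, fell in WT (-1.91, adjusted p = 0.0344) and read -0.54 in Acot12-/- (adjusted p = 0.522). Only 9 of 16 PPARγ targets were tested, since most are adipocyte genes, and of these 4 fell and none rose in WT (median -0.97), among them Lpl (-2.84) and Pck1 (-1.98), while 6 fell and 1 rose in Acot12-/- (median -1.50, or -1.06 without Acot12-/- CL 2). The shares called were 44.4% in WT and 77.8% in Acot12-/-, against 47.5% and 53.7% of all genes.

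Between genotypes in CL kidneys, where 4.48% of all genes were called (1.12% higher and 3.36% lower), the PPARα target Pdk4 was higher in Acot12-/- kidneys. It read 4.17, 3.48 and 4.84 FPKM in WT CL and 11.1, 6.02 and 13.1 FPKM in Acot12-/- CL kidneys (1.05, adjusted p = 0.0273). Of the 28 targets, 2 (7.14%) were called higher and none lower. A positive difference was seen in 26 (median 0.31), where Ppara itself differed by 0.57 without passing the test. So did 13 of 16 proximal tubule markers (median 0.58) and 17 of 22 PGC-1α and ERRα targets (median 0.22) differ, against 6767 of 13243 genes tested. Without Acot12-/- CL 2, 9 of the 28 were higher and none lower (median 0.48), with Pdk4 at 1.35 (adjusted p = 0.00155), where 22.1% of all genes were called. Acsl1, of the PPARγ list, was higher as well (0.66, adjusted p = 0.0292), from 40.3 to 43.2 FPKM in WT to 55.1 to 73.1 FPKM in Acot12-/- CL kidneys. Of that list Fabp4, a fatty acid carrier of adipocytes and endothelium, was lower (-1.94, adjusted p = 0.00275), and without Acot12-/- CL 2 its 9 tested genes held 4 higher and 1 lower call. These calls rest on a spread estimated over all 4 groups. With only the groups compared in the fit, 0 of 13243 genes were called higher and 1 lower (0.00755%), so Pdk4 and Acsl1 were not called. In UUO kidneys no gene of these lists was called between genotypes. There 0.0151% of all genes were called, and none of the 8 members had an unadjusted p under 0.05, against 2.36% of all genes.

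The cell types of the tissue moved at the same time. From CL to UUO in WT the summed markers went from 7843 to 10196 FPKM to 1233 to 2375 FPKM for proximal tubule, and from 2068 to 3380 FPKM to 507 to 1120 FPKM for distal tubule and collecting duct. In Acot12-/- they went from 10275 to 13530 FPKM to 882 to 3092 FPKM, and from 2032 to 2466 FPKM to 502 to 973 FPKM. All 16 proximal tubule markers fell in Acot12-/- (median -2.57), while 10 of 11 distal markers fell in WT and 9 of 11 in Acot12-/-. Of all genes, 23.9% were called lower and 23.6% higher in WT, and 27.2% and 26.6% in Acot12-/-. All 10 injured tubule markers rose in both genotypes (median 3.57 and 3.82), with Havcr1, the kidney injury molecule, at 1.87 to 4.48 FPKM in WT CL and 597 to 755 FPKM in WT UUO kidneys.

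Macrophage (9 of 10), lymphocyte (6 of 7 tested) and fibroblast markers (7 of 10) rose in WT, and 10 of 10, 6 of 7 and 10 of 10 in Acot12-/-. Of all genes, 23.6% were called higher in WT and 26.6% in Acot12-/-. Adgre1, the macrophage marker F4/80, read 2.09 to 3.47 FPKM in WT CL and 9.58 to 13.5 FPKM in WT UUO kidneys, so macrophage markers, from a cell type known to express PPARγ, lay higher in the same UUO libraries as Pparg. Endothelial markers differed between genotypes, with 4 of 10 lower and 1 higher in WT UUO kidneys, 7 of 10 higher in Acot12-/- UUO kidneys and 8 of 10 lower in Acot12-/- than in WT CL kidneys. In the last of these comparisons 3.36% of all genes were called lower. With only the groups compared in the fit, 1 gene of 13243 was. The part of these cell types in the members' values was not tested. On the same scale, the falls of Hnf4a (-1.17), Nr1h4 (-1.37) and Ppara (-0.80) in WT were smaller than the median fall of the proximal tubule markers (-2.47).

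Another scaling moved the whole table. When all libraries were brought to an equal sum of FPKM, the median of all genes went from 0.01 to 0.62 in WT and from -0.01 to 0.45 in Acot12-/-, since the summed FPKM was lower in UUO libraries. The difference of Rxra then read 0.46 in WT and 0.17 in Acot12-/-, and that of Ppard 0.09 in WT, with signs turned. In WT 3 members were then called, Ppargc1a and Nr1h4 lower and Pparg higher (0.96), while the share of all genes called rose to 64.0%. Relative to that median, the members in WT ran in nearly the same order, with the first 2 places exchanged. Ppargc1a stood at -1.33, Nr1h4 at -1.27, Hnf4a at -1.06, Esrra at -1.05, Ppara at -0.77, Ppard at -0.53, Rxra at -0.16 and Pparg at 0.34.

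Likeness between patterns over the 12 libraries was described by Pearson's r of log2(FPKM + 1), in which all points share the same libraries, their depth and their GC trend. Of the members, Hnf4a was most like Ppara (r = 0.956) and Nr1h4 (r = 0.934), and Esrra and Rxra were like each other (r = 0.880). Over all genes tested, Hnf4a was closest to the kinase gene Mapk14 (0.993), Fbxo18 (0.987) and Osbpl2 (0.984), and 1175 genes exceeded an r of 0.9. Ppara was closest to Ugt1a7c (0.976), Rufy1 (0.968) and D630045J12Rik (0.961), and Nr1h4 to Gm10732 (0.985), Cdkl1 (0.982) and Pter (0.978). Ppargc1a was closest to Guf1 and Homer1 (both 0.991) and Rwdd4a (0.990). Esrra was closest to the fatty acid dehydrogenase gene Acads (0.987), Rnpepl1 (0.986) and Aes (0.983), and Rxra to Mlf2 and Yif1b (both 0.971) and Mtx1 (0.969).

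For Ppard and Pparg no gene exceeded 0.9. Ppard was closest to Ccdc85c (0.896), Adap1 (0.891) and Nr2f6 (0.868), and Pparg to Ankle1 (0.896), with Xdh (0.887) also near. The 3 genes closest to Esrra lay between 60.0% and 62.2% GC, near the 61.8% of Esrra, and those closest to Ppargc1a between 36.9% and 43.3%, near its 41.7%. Over deviations from the group means, Esrra and Rxra kept r = 0.948 while Ppargc1a and Esrra gave r = -0.811. Without Acot12-/- CL 2, which held the highest Ppargc1a and the lowest Esrra of its group, these became 0.614 and 0.321.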

How the data were processed

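The 12 libraries hold 3 samples each of WT CL, WT UUO, Acot12-/- CL and Acot12-/- UUO kidney cortex, grouped by the labels' titles. The RNA was made into strand-specific libraries, and trimming, mapping and normalization were done by a company for the authors. The submitters' processing notes name edgeR and mm10; the aligner is not given in the sources used here. The deposited files hold 1 normalized value per gene, read here as FPKM from its steps (whole fragments over transcript length), so that a deposited FPKM gives a level per length and not a count. From those steps the library size used as divisor was estimated at 12360000 to 22990000 fragments, 1 fragment on 1 kilobase being worth 0.0435 to 0.0809 FPKM. If the normalization had adjusted that size, it is not the depth sequenced. Median-ratio size factors of the deposited values ran from 0.975 to 1.04, so the libraries were already near balance by that measure. Counting errors cover that error only.

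Genes with at least 1 FPKM in at least 3 libraries were tested (13271 genes), less 28 listed at 0 in a library whose group reached 10 FPKM, which left 13243. log2(FPKM + 1) was fitted with limma 3.58.1 (R 4.3.3), all 4 groups in 1 fit with a variance trend, two-sided, with Benjamini-Hochberg adjustment over all genes tested and calls under 0.05. Lists were counted and given no set test. Ratios used exact permutation tests. The fit was tested on simulated data.

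Replicate numbers were checked for pairing. Deviations from group means correlated between CL and UUO libraries of the same number at r = 0.134, 0.364 and 0.335 in WT and 0.322, 0.186 and 0.318 in Acot12-/-, at most 0.139 for different numbers. The lowest r of the same number (0.134) lay below the highest for different numbers (0.139), and neither labels nor methods state a pairing. The numbers were taken as possible pairs of kidneys within a genotype. The main fit ignores them, and a fit with the replicate block is given where it changes a call. That fit gave each numbered pair its own term for UUO against CL and for the interaction. Between genotypes it used a correlation of 0.209 within a block.

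Alternatives were a pseudocount of 0.1, no filter, other scalings, the block, only the groups compared, each library left out, both Acot12-/- kidneys numbered 2 left out and a GC trend removed, the last 2 added after seeing the data. Positions and GC content came from GENCODE vM21 (22148 of 23183 symbols matched) and promoters from RefSeq on GRCm38.p6. Named besides the 8 members were, of each list, up to 3 genes called lower and 3 called higher with the largest change in WT, the 3 genes most like each member, Acot12 and defining markers; other names are said to have been chosen after their values were seen. A few genes that this rule names are not reported here. The members and lists were chosen with earlier results of these data known.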

Additional observations from a re-analysis of the deposited data

Results flagged for a closer look

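The change with UUO differed between genotypes by the interaction test for 2 genes of the lists counted above, among 14 of all genes tested (0.106%). Fabp4, a fatty acid carrier of capillaries and adipocytes and a PPARγ target, read 279, 258 and 307 FPKM in WT CL, 210, 207 and 167 FPKM in WT UUO, 55.9, 102 and 66.2 FPKM in Acot12-/- CL and 199, 243 and 312 FPKM in Acot12-/- UUO kidneys. Its interaction was 2.30 on the log2 scale (SE 0.33, limma adjusted p = 0.0287), with -0.54 in WT (adjusted p = 0.0757) and 1.76 in Acot12-/- (adjusted p = 6.08e-05). Tie1, an endothelial receptor kinase gene, had an interaction of 1.38 (adjusted p = 0.0287), with -0.04 in WT and 1.33 in Acot12-/-. Both interactions kept their direction but often lost their call. In 9 of the 12 fits without 1 library, those without any WT library and without Acot12-/- CL 1, UUO 2 or UUO 3, neither gene was called, and without Acot12-/- UUO 1 Tie1 was not (adjusted p from 0.00367 to 0.121 for Fabp4 and from 0.00991 to 0.164 for Tie1 over the 12). Neither was called with equal totals (adjusted p = 0.247 and 0.269) or with no filter (adjusted p = 0.0674 each), nor Tie1 with the GC trend removed (adjusted p = 0.0673). For both genes the Acot12-/- CL libraries read lowest, by -1.94 for Fabp4 and -1.07 for Tie1 against WT CL, as did 8 of 10 endothelial markers, and none of the 8 members was called by the interaction. Groups of 3 libraries were too small to test for single libraries that stand apart.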

How the results depend on the processing

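Over 22 alternatives, the 10 member changes called from CL to UUO kept their direction in all 220 refits and their call in 210. The 10 lost calls were those of Hnf4a (-0.44), Ppara (-0.15) and Esrra (-0.43) in WT with equal total FPKM, of Esrra in WT without 1 of 5 libraries and of Pparg in Acot12-/- without 1 of 2. Members called in WT numbered 3 with equal totals (Ppargc1a and Nr1h4 lower, Pparg higher), in place of 5, where 64.0% of all genes were called in place of 47.5%. With the replicate block the calls were 6 in WT (Pparg added, adjusted p = 0.0378) and 6 in Acot12-/- (Esrra added, adjusted p = 0.0245), where 51.0% and 56.2% of all genes were called, and the block changed no other member's call. Between genotypes in CL kidneys, members called ranged from 0 to 2 without 1 library, 2 without Acot12-/- CL 2 (Esrra and Rxra), and 2 with both Acot12-/- kidneys numbered 2 left out. Of all genes, 4.48% were called there in the main fit and 0.00755% with only the groups compared. No setting called a member between genotypes in UUO kidneys or by the interaction. An interaction could not be fitted to only the groups compared.

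Of 872 member refits 32 changed sign, none of them for a called difference. With equal totals these were Ppard (0.0859) and Rxra (0.46) in WT, Rxra in Acot12-/- (0.17) and the interaction of Ppargc1a (-0.0141), and 87.6% of calls in WT were then higher in place of 49.7% (79.7% in place of 49.5% in Acot12-/-). With both Acot12-/- kidneys numbered 2 left out they were Ppard in Acot12-/- (-0.48), Rxra between genotypes in UUO (0.0641), Esrra (0.56) and Ppargc1a (-0.30) between genotypes in CL kidneys, and the interactions of Esrra (-0.23) and Nr1h4 (0.0219). With the GC trend removed they were Ppard in Acot12-/- (-0.0124), Esrra (0.18) and Ppargc1a (-0.0123) between genotypes in CL kidneys. Without 1 library, Ppard in Acot12-/- ranged from -0.37 to 0.45. Between genotypes in UUO kidneys Ppard ranged from -0.17 to 0.0562 and Rxra from -0.084 to 0.0641, and in CL kidneys Esrra ranged from -0.41 to 0.56, Nr1h4 from -0.29 to 0.0157, Ppargc1a from -0.30 to 0.38 and Rxra from -0.13 to 0.48. Interactions ranged from -0.36 to 0.61 for Esrra, -0.30 to 0.0015 for Nr1h4, -0.0312 to 0.31 for Pparg, -0.16 to 0.52 for Ppargc1a and -0.51 to 0.10 for Rxra. The cause of these changes was not tested.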
